A study of Mus musculus with 6 samples.

Results

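The genes described here are the 10 G1 regulators *Ccnd1*, *Ccnd2* and *Ccnd3* (D cyclins), *Ccne1* and *Ccne2* (E cyclins), *Cdkn1a* and *Cdkn1b* (CIP/KIP inhibitors), *Cdkn2c* and *Cdkn2d* (INK4 inhibitors) and *Myc*. They were taken by symbol from a table of read counts for 55453 genes, and all 10 were among the 13680 genes with enough counts to be tested. The counts come from RNA-Seq of bone marrow-derived macrophages (BMDM) in 3 PP2Ac KO and 3 PP2Ac WT libraries. PP2Ac is the catalytic subunit of the phosphatase PP2A that *Ppp2ca* encodes. PP2Ac KO cells came from LysM-cre PP2Ac fl/fl mice on *C57BL/6*, in which loxP sites surround exon 1 of *Ppp2ca* and *cre* is driven by the Lysozyme 2 promoter, which is active in myeloid cells. PP2Ac WT cells came from *C57BL/6* mice of another source, which are not described as carrying *cre* or the floxed allele, so that genotype and colony cannot be told apart. The study used mice of both sexes aged 6 to 10 weeks, grew marrow cells with M-CSF or with medium conditioned by L929 fibroblasts, and collected macrophages on day 7. The labels give no treatment. Both genotypes are assumed, from the legend of the RNA-Seq, to have received the STING ligand cGAMP (10 μg/mL, 4 hours). For cell-based experiments the study describes biological triplicates as its default, and the legend of the RNA-Seq gives n = 3 per group. Nothing in these words or in the labels says that libraries of a group came from separate mice. The p-values therefore measure the spread between these libraries, which may be technical.

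D cyclins are made in response to mitogens such as M-CSF and activate CDK4 and CDK6, which phosphorylate the retinoblastoma protein and so release E2F factors. E cyclins then activate CDK2 at the start of S phase. INK4 proteins block CDK4 and CDK6, whereas p21 and p27, the products of *Cdkn1a* and *Cdkn1b*, bind cyclin-CDK complexes more broadly. MYC promotes growth and G1 progression, and PP2A is known to act on MYC protein and on several kinases upstream of the D cyclins. Macrophages leave the cell cycle as they mature or become activated, and p21 is known to be induced during their differentiation. Transcript counts do not measure these proteins or their phosphorylation.

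The libraries held 35257156 to 47390899 counts on genes, at which 3 counts equal 0.0604 to 0.0909 CPM (counts scaled to library size by the TMM method). *Ppp2ca* had 33 to 47 counts in PP2Ac KO and 8279 to 10654 in PP2Ac WT (log2 fold change -7.67). The macrophage genes *Adgre1*, *Csf1r* and *Cd68* each had at least 1132 CPM in every library, whereas *Lyz2* had 6.58 to 10.1 CPM. Of 10 macrophage markers, 4 were higher in PP2Ac KO (*Mertk*, *Fcgr1*, *Spi1* and *Ptprc*), and 7 in a fit blocked by replicate number. At FDR under 0.05, 18.1% of all genes tested were higher and 19.0% were lower, and 24.4% and 26.4% in that blocked fit. Of 11 tested fibroblast markers, 10 were lower in PP2Ac KO, and the summed CPM of the list was 34.1 to 50.02 in PP2Ac KO and 115 to 161 in PP2Ac WT, with no marker at 0 throughout. Of 10 proliferation markers, 9 were lower and 1 (*Cenpe*) was higher, with a summed CPM of 97.3 to 110 against 147 to 189. Of 4 tested endothelial markers, *Cdh5* and *Kdr* were higher and *Vwf* was lower. Of 3 tested dendritic cell markers, *Siglech* and *Clec9a* were higher, with a summed CPM of at most 3.04 for the list. Of 3 tested B cell markers, *Ebf1* was lower. T and NK cell markers and mast cell and erythroid markers were too low to test, and the 1 neutrophil marker tested was not called. In bulk RNA, fewer cells of a type and less RNA per cell cannot be told apart.

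Between the genotypes, 5 of the 10 genes were higher in PP2Ac KO at FDR under 0.05 (quasi-likelihood test of edgeR, adjusted by Benjamini and Hochberg's method over all genes tested), where 18.1% of all genes tested were higher. These were *Ccnd1*, *Ccnd2*, *Ccnd3*, *Cdkn1a* and *Cdkn2d*. *Cdkn2c* was the 1 gene that was lower, where 19.0% of all genes tested were lower. *Ccne1*, *Ccne2*, *Cdkn1b* and *Myc*, 4 genes, did not pass. In the blocked fit 5 were higher and 3 were lower, since *Ccne2* and *Cdkn1b* also passed. That fit called more of all genes tested, 24.4% higher and 26.4% lower, so 3 of 10 lower is near the share of all genes. *Ccnd1*, *Ccnd2* and *Cdkn1a* passed the study's thresholds of a log2 fold change over 1 at FDR under 0.01, 3 of 10 genes, where 3.36% of genes tested did so in that direction. The values of the genotypes did not overlap for 6 of the 10 genes, where 50.9% of genes tested had no overlap, so this count does not set the 10 apart. The median log2 fold change of the 10 genes was 0.12, and that of all genes tested was -0.02. Upper-quartile scaling lowered the share of higher genes among all calls from 48.7% to 38.4% (2095 higher and 3356 lower, against 2470 and 2604).

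**Figure D1:**
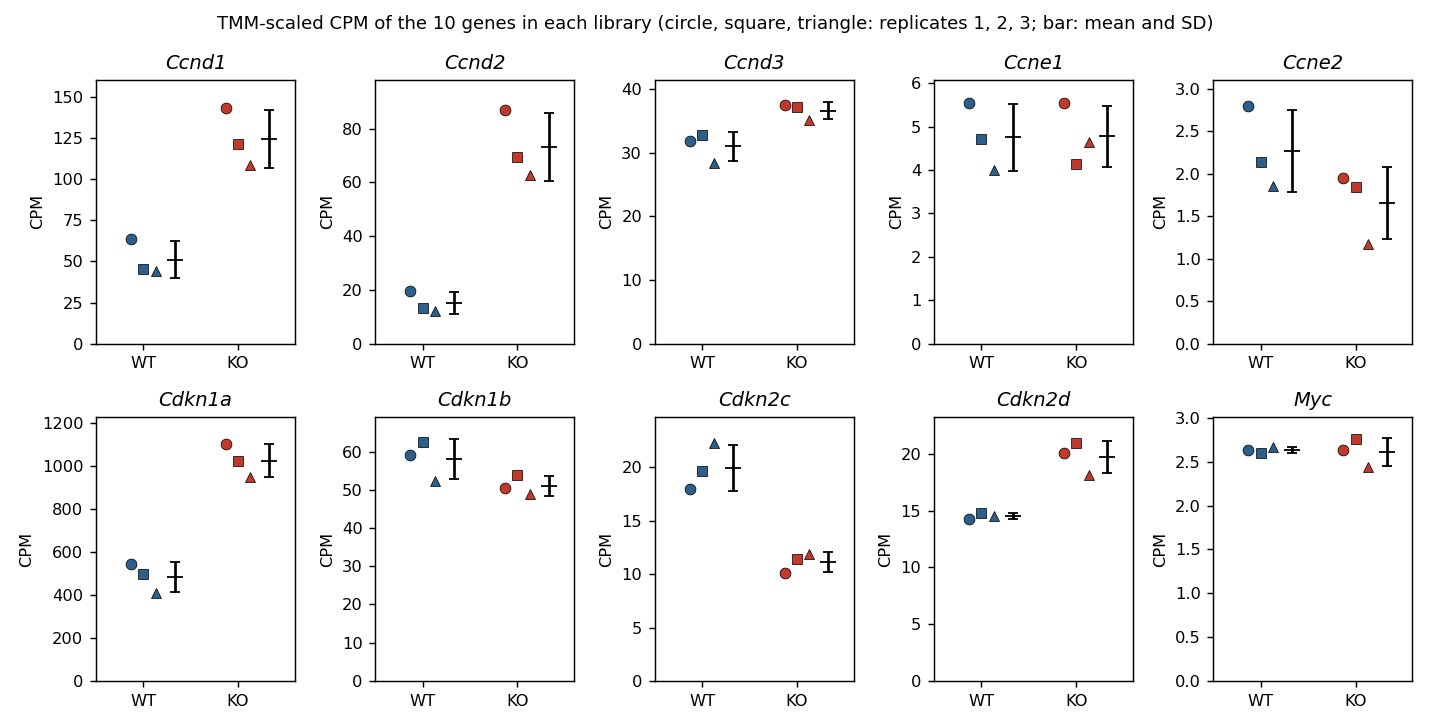
TMM-scaled CPM (vertical axis, from 0) of each of the 10 genes in each library, PP2Ac WT in blue and PP2Ac KO in red, with circles, squares and triangles for replicates 1, 2 and 3 and a bar for the mean and SD of 3 libraries. *Ccnd2* shows the widest relative gap, with PP2Ac KO libraries at 62.8 to 87.1 CPM and PP2Ac WT libraries at 12.1 to 19.7 CPM, whereas the *Myc* libraries share the range from 2.44 to 2.76 CPM.

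The D cyclins were each higher in PP2Ac KO, and they rose to very different degrees. *Ccnd2*, which encodes cyclin D2, had 87.1, 69.6 and 62.8 CPM in PP2Ac KO replicates 1, 2 and 3 and 19.7, 13.2 and 12.1 CPM in PP2Ac WT. The lowest PP2Ac KO library lay far above the highest PP2Ac WT library. Its mean was 73.2 ± 12.5 CPM against 15 ± 4.13 CPM (SD, n = 3), which is a log2 fold change of 2.28 ± 0.18 (SE, edgeR's adjusted p = 6.4e-05). Between libraries with the same replicate number, *Ccnd2* was 4.41, 5.27 and 5.20 times higher in PP2Ac KO. Of all genes tested, 99.7% had a smaller log2 fold change. The gene lies on the reverse strand at chr6:127125162-127152193 (GRCm38), and 2 antisense genes on its exons had at most 5 counts.

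*Ccnd1*, which encodes cyclin D1, the D cyclin classically induced by M-CSF in macrophages, had 144, 122 and 109 CPM in the PP2Ac KO replicates and 63.9, 45.5 and 44.2 CPM in the PP2Ac WT replicates. Replicate 1 was the highest library in each genotype, and the genotypes did not overlap. Its mean was 124.6 ± 17.6 CPM against 51.2 ± 11.1 CPM (SD, n = 3), which is a log2 fold change of 1.28 ± 0.15 (SE, edgeR's adjusted p = 0.000284). The same-numbered libraries differed 2.25, 2.67 and 2.46 times. *Ccnd1* (chr7:144929931-144939925, reverse strand) shares 1100 exon bases with LTO1 on the other strand, which had 639 to 980 counts per library against 1851 to 6090 for *Ccnd1*. The strand setting of the counting is not given in the sources used here, so reads of that overlap may have been counted on either gene or on neither.

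*Ccnd3*, which encodes cyclin D3, had 37.5, 37.3 and 35.1 CPM in PP2Ac KO and 31.8, 32.8 and 28.4 CPM in PP2Ac WT. The genotypes did not overlap, but the gap between them was small, and its log2 fold change was 0.24 ± 0.07 (SE, edgeR's adjusted p = 0.0250). This call was lost with upper-quartile scaling (log2 fold change 0.18, adjusted p = 0.0764 from edgeR) and without PP2Ac KO replicate 1, PP2Ac KO replicate 2 or PP2Ac WT replicate 3 (adjusted p = 0.0782, 0.0810 and 0.0839). *Ccnd3* (chr17:47505051-47599691, forward strand) shares 361 exon bases with *Bysl* on the other strand, which had 211 to 316 counts.

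The fibroblast markers, whose summed CPM was 115 to 161 in PP2Ac WT and at most 50.02 in PP2Ac KO, moved opposite to the D cyclins, and their part in these values was not tested. The proliferation markers also moved opposite to the D cyclins, and their part was not tested either. The summed CPM of the endothelial markers was higher in PP2Ac KO, in the direction of the D cyclins, although *Vwf* was lower. The part of these markers was not tested.

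To show what stands before the start sites of these genes, the 250 bases upstream of annotated starts were read from RefSeq's GRCm38.p6 promoters, which matched 6 of the 10 genes with 9 entries. *Ccnd1*, *Ccnd2*, *Ccne2* and *Myc* had no entry. Motifs were searched on both strands as exact letters. Those reported here were the GC box (GGGCGG, bound by SP1), the E-box bound by MYC and MAX (CACGTG), E2F sites (TTTCGCGC and TTTGGCGC), the CRE (TGACGTCA), the AP-1 site (TGANTCA), the ISRE core of IFN-regulated genes, the TEAD site (CATTCC) and the TATA box (TATAAA). Of all 32851 promoters of this length, 32.7% hold a GC box, 6.02% the E-box, 0.256% and 0.417% the E2F sites, 1.55% the CRE, 6.75% the AP-1 site, 2.98% the ISRE core, 12.6% the TEAD site and 12.4% the TATA box. Among the 9 windows of these genes, GC boxes and 1 TEAD site were the only ones of these motifs found. The sequences below are on the forward strand of the chromosome, which is the strand of these genes, with GC boxes on either strand in capitals. They are shown because the inhibitors *Cdkn1a* and *Cdkn1b* differ in their response and *Cdkn1a* has 2 start sites, and because *Ccnd3* is the D cyclin with an entry.
*Cdkn1a*, upstream start, chr17:29090729-29090978: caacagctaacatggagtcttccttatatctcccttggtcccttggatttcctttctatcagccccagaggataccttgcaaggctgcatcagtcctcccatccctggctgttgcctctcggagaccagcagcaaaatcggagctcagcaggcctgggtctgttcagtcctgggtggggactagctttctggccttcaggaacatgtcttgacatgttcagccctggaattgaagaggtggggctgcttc
*Cdkn1a*, downstream start, chr17:29093519-29093768: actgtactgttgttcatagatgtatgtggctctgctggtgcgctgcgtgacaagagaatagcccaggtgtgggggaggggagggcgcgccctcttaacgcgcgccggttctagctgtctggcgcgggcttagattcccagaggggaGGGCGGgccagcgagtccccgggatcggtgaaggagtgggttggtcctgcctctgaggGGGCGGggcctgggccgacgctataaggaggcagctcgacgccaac
*Cdkn1b*, chr6:134920151-134920400: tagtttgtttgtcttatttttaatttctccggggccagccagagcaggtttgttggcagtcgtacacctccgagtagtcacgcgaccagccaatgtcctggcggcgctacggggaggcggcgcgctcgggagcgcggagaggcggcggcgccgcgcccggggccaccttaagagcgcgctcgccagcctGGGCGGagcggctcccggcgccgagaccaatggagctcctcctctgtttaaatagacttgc
*Ccnd3*, upstream start, chr17:47504801-47505050: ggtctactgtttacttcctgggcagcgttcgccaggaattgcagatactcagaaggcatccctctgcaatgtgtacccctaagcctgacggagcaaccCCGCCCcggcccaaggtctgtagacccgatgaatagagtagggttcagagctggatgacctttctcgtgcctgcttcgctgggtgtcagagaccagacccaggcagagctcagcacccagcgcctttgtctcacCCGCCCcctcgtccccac
The window before the upstream *Cdkn1a* start has none of these motifs and a GC content of 54%, near the median of 52.4% for all promoters. A p53 site was not among the motifs searched, so whether these windows hold one was not tested. The window before its downstream start has 2 GC boxes and a GC content of 64.8%. The *Cdkn1b* window has 1 GC box, whose nearest base lies 56 bases before the start, and the window before the upstream *Ccnd3* start has 2. The TEAD site was in the window before the downstream *Ccnd3* start, not printed here, which also has 1 GC box. These matches are letters in a window and not measured binding, and the counts do not tell which start was used.

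The E cyclins did not pass the test. *Ccne1*, which encodes cyclin E1, had 5.54, 4.15 and 4.65 CPM in the PP2Ac KO replicates and 5.56, 4.71 and 4.01 CPM in PP2Ac WT. The libraries of the genotypes were intermingled. Its log2 fold change was 0.01 ± 0.15 (SE, edgeR's adjusted p = 0.975), with a 95% confidence interval from -0.34 to 0.35. *Ccne2*, which encodes cyclin E2, had 1.96, 1.85 and 1.17 CPM in PP2Ac KO and 2.80, 2.14 and 1.86 CPM in PP2Ac WT, from 49 to 139 counts. Each PP2Ac KO library lay below the PP2Ac WT library of the same number, although the groups overlapped. For *Ccne2* the log2 fold change was -0.46 ± 0.23 (SE, edgeR's adjusted p = 0.150), and -0.46 in the blocked fit, where it passed (edgeR's adjusted p = 0.0314). *Ccne2* (chr4:11191351-11204779, forward strand) shares 609 exon bases with *Ints8* on the other strand, which had 731 to 1136 counts, well above its own. *Ccne1* lies at chr7:38097984-38107534 on the reverse strand.

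*Cdkn1a* was the most abundant of the 10 genes and was about doubled in PP2Ac KO. It encodes p21, an inhibitor of CDK2 complexes that p53 and other signals induce. Its libraries had 1103, 1025 and 950 CPM in PP2Ac KO and 543, 498 and 408 CPM in PP2Ac WT. Every PP2Ac KO library was above every PP2Ac WT library, and same-numbered libraries differed 2.03, 2.06 and 2.33 times. The means were 1026 ± 76.9 CPM and 482.8 ± 68.8 CPM (SD, n = 3), which is a log2 fold change of 1.09 ± 0.11 (SE, edgeR's adjusted p = 0.000150). Without PP2Ac WT replicate 3 it was 0.98, just under the study's threshold of 1. Of all genes tested, 96.8% had a smaller log2 fold change. The gene lies at chr17:29090976-29100727 on the forward strand, and 2.14% of the 50-base windows in its transcripts also occur in other genes, mainly *Trim27*.

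*Cdkn1b*, the gene of p27, an inhibitor that holds resting cells out of the cycle, had values slightly lower in PP2Ac KO. They were 50.4, 53.9 and 48.8 CPM in PP2Ac KO and 59.2, 62.5 and 52.3 CPM in PP2Ac WT. The groups overlapped, while each PP2Ac KO library was below its same-numbered PP2Ac WT library. The log2 fold change was -0.18 ± 0.08 (SE, edgeR's adjusted p = 0.0901), and -0.18 in the blocked fit, where it passed (edgeR's adjusted p = 0.00523). *Cdkn1b* also passed with upper-quartile scaling (log2 fold change -0.25, adjusted p = 0.0306 from edgeR) and without PP2Ac WT replicate 3 (log2 fold change -0.25, adjusted p = 0.0263 from edgeR). It lies at chr6:134920401-134925513 on the forward strand.

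The INK4 genes changed in opposite directions. *Cdkn2c*, the gene of p18, had 10.1, 11.4 and 11.9 CPM in the PP2Ac KO replicates and 18.0, 19.7 and 22.3 CPM in the PP2Ac WT replicates. All PP2Ac KO libraries lay below all PP2Ac WT libraries. The log2 fold change was -0.84 ± 0.10 (SE, edgeR's adjusted p = 0.000306), and same-numbered libraries stood at 0.563, 0.581 and 0.536 of PP2Ac WT. *Cdkn2d*, the gene of p19, had 20.1, 20.96 and 18.2 CPM in PP2Ac KO and 14.2, 14.8 and 14.5 CPM in PP2Ac WT. Again the genotypes did not overlap, with PP2Ac KO above. Its log2 fold change was 0.44 ± 0.07 (SE, edgeR's adjusted p = 0.00160). *Cdkn2c* lies at chr4:109660876-109667189 and *Cdkn2d* at chr9:21288410-21291407, both on the reverse strand. The proliferation markers, 9 of 10 of which were lower, and the fibroblast markers moved in the direction of *Cdkn2c*, and their part in its decrease was not tested.

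*Myc*, the transcription factor gene, showed no detectable difference. It had 2.64, 2.76 and 2.44 CPM in PP2Ac KO and 2.64, 2.60 and 2.67 CPM in PP2Ac WT, from 91 to 131 counts. The PP2Ac WT libraries lay inside the range of the PP2Ac KO libraries. The log2 fold change was -0.01 ± 0.12 (SE, edgeR's adjusted p = 0.939), and its 95% confidence interval ran from -0.30 to 0.27. *Myc* lies at chr15:61985391-61990374 on the forward strand.

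**Figure D2:**
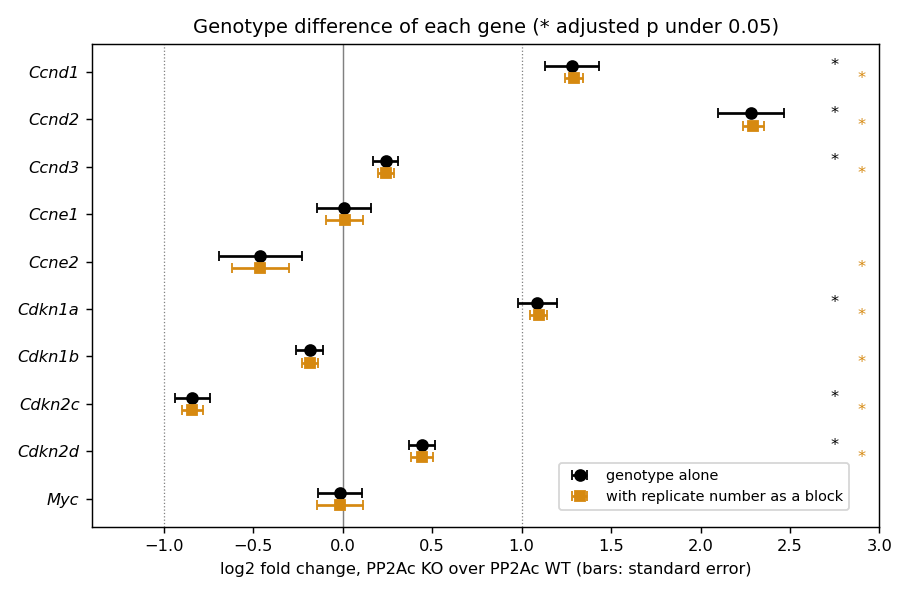
Log2 fold change of PP2Ac KO over PP2Ac WT (horizontal axis) for each of the 10 genes, with bars for the standard error, from the edgeR fit of genotype alone (black circles) and the fit blocked by replicate number (orange squares). Asterisks mark an adjusted p under 0.05, and dotted lines mark log2 fold changes of -1 and 1. *Ccnd2* stands farthest right at 2.28 and *Cdkn2c* farthest left at -0.84, and *Ccne2* and *Cdkn1b* carry an asterisk in the blocked fit and not in the other.

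Levels of different genes were compared as CPM per kb of exon. In PP2Ac WT the order was *Cdkn1a* at 135.9 ± 19.4, *Cdkn1b* at 12.7 ± 1.14, *Ccnd1* at 10.9 ± 2.35, *Cdkn2d* at 9.23 ± 0.184, *Cdkn2c* at 7.43 ± 0.810 and *Ccnd3* at 3.53 ± 0.263 CPM per kb (SD, n = 3). *Ccne1* at 1.79 ± 0.291, *Ccnd2* at 1.59 ± 0.440, *Myc* at 0.970 ± 0.0136 and *Ccne2* at 0.648 ± 0.138 CPM per kb followed. *Cdkn1b* and *Ccnd1*, *Ccnd1* and *Cdkn2d*, and *Ccne1* and *Ccnd2* were neighbours whose libraries overlapped. In PP2Ac KO, *Cdkn1a* was again first at 288.7 ± 21.6 CPM per kb, and *Ccnd1* was next at 26.5 ± 3.75 CPM per kb. *Ccnd2* had moved up to 7.78 ± 1.33 CPM per kb, after *Cdkn2d* at 12.6 ± 0.914 and *Cdkn1b* at 11.2 ± 0.575 CPM per kb, and before *Ccnd3* at 4.18 ± 0.149 and *Cdkn2c* at 4.15 ± 0.350 CPM per kb. *Cdkn2d* and *Cdkn1b*, and *Ccnd3* and *Cdkn2c*, overlapped there. The last places were again *Ccne1*, *Myc* and *Ccne2*, at 1.795 ± 0.264, 0.962 ± 0.0582 and 0.475 ± 0.121 CPM per kb. With the length of the longest transcript in place of all exons, 8 of 10 genes kept their place in each genotype, and *Cdkn1b* changed places with *Ccnd2* in PP2Ac KO and with *Ccnd1* in PP2Ac WT. For *Ccnd3*, all exons cover 8775 bases over 21 transcripts, and the longest transcript has 3858 bases in 2 exons. The transcripts in use were not measured, so levels between genes and shares within a family depend on the lengths taken.

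The make-up of the D cyclin transcripts differed between the genotypes. Summed over the D cyclins, the level was 38.4 ± 5.20 CPM per kb in PP2Ac KO and 16.0 ± 2.89 CPM per kb in PP2Ac WT (SD, n = 3). *Ccnd2* made up 21.02%, 19.8% and 19.8% of this sum in the PP2Ac KO replicates and 10.9%, 9.48% and 9.23% in the PP2Ac WT replicates, about double in PP2Ac KO. *Ccnd3* made up 10.97% ± 1.12 and 22.5% ± 3.32 (SD, n = 3), and *Ccnd1* 68.9% ± 0.453 and 67.7% ± 2.55 in the same order. For the sum and the shares of *Ccnd2* and *Ccnd3*, all libraries of 1 genotype lay apart from the other and the exact two-sided permutation test gave p = 0.1, the smallest that 3 against 3 libraries allow (adjusted over 16 such quantities, 0.123). The share of *Ccnd1* overlapped (exact permutation p = 0.6, adjusted 0.686).

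The summed INK4 levels of the genotypes overlapped, whereas the share of each gene in them did not. *Cdkn2c* and *Cdkn2d* together had 16.7 ± 0.805 CPM per kb in PP2Ac KO and 16.7 ± 0.901 CPM per kb in PP2Ac WT (SD, n = 3, exact permutation p = 0.9). *Cdkn2c* made up 22.7%, 24.2% and 27.8% of it in PP2Ac KO and 42.5%, 43.8% and 47.3% in PP2Ac WT, with no overlap (exact permutation p = 0.1, the smallest possible, adjusted 0.123). *Cdkn1a* made up 91.2% ± 0.580 of the 4 inhibitors' summed level in PP2Ac KO and 82.1% ± 2.18 in PP2Ac WT (SD, n = 3, exact permutation p = 0.1, adjusted 0.123). The summed E cyclins had 2.27 ± 0.321 and 2.44 ± 0.427 CPM per kb (SD, n = 3, exact permutation p = 0.7, adjusted 0.747).

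**Figure D3:**
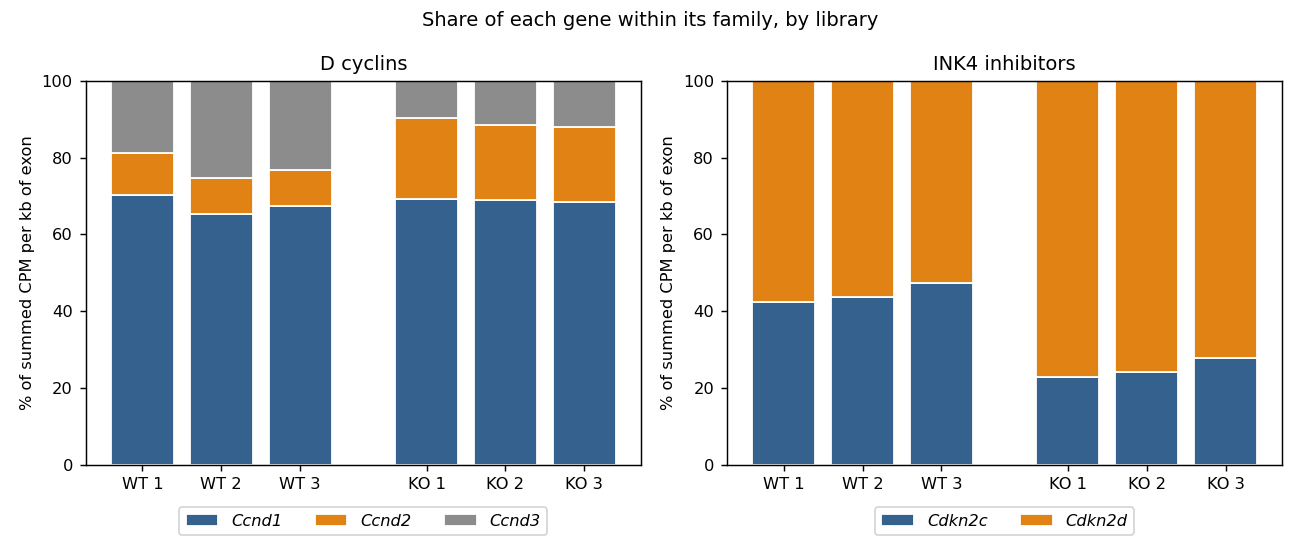
Share of each gene (percent, from 0 to 100) in the summed CPM per kb of exon of the D cyclins (left) and the INK4 inhibitors (right), 1 bar per library. The *Ccnd2* segment is about 20% in each PP2Ac KO library and about 10% in each PP2Ac WT library, and the *Cdkn2c* segment is 42.5% to 47.3% in PP2Ac WT and 22.7% to 27.8% in PP2Ac KO.

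The other genes of these pathways were followed on 7 lists, with 148 genes of which 143 were tested. Of these 143, 31 were higher, 39 were lower and 73 were not called, where 18.1% and 19.0% of all genes tested were higher and lower. Their median log2 fold change was -0.06. Counts with the block, given below for single lists, stand against the larger shares of 24.4% higher and 26.4% lower among all genes tested. Among the direct partners of the cyclins, *Cdk4* and *Cdk2* were lower while the D cyclins were higher. *Cdk4*, the kinase that D cyclins activate, had 30.3, 31.4 and 34.3 CPM in PP2Ac KO and 36.6, 40.6 and 41.8 CPM in PP2Ac WT, a log2 fold change of -0.31 (adjusted p = 0.0102 from edgeR). *Cdk2*, the partner of the E cyclins, fell from 20.6 ± 1.081 to 13.9 ± 1.01 CPM (SD, n = 3), which is a log2 fold change of -0.56 (adjusted p = 0.000637 from edgeR). *Cdk6*, the other kinase of the D cyclins, had 51.8, 36.6 and 41.8 CPM against 39.3, 27.9 and 32.3 CPM. Its log2 fold change of 0.39 did not pass (adjusted p = 0.0629 from edgeR), although it did with the block (2.38e-05), in DESeq2 (0.0290), without a filter on low counts (0.000699) and without PP2Ac KO replicate 2 or PP2Ac WT replicate 1 (0.0365 and 0.0127). *Rb1*, the retinoblastoma gene, had a log2 fold change of -0.17 (edgeR's adjusted p = 0.111), and it passed with the block (0.0122) and with upper-quartile scaling (log2 fold change -0.23, adjusted p = 0.0225).

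Over the 24 tested G1/S partners, 4 were higher (*Rbl1*, *E2f4*, *Fbxw7* and *Fbxo4*) and 8 were lower, and 7 and 12 with the block. Their median log2 fold change was -0.10. *Rbl1*, the gene of the retinoblastoma relative p107, rose by a log2 fold change of 1.09 (adjusted p = 0.00127 from edgeR). *Skp2*, whose product marks p27 for degradation, had a log2 fold change of -0.71 (adjusted p = 0.00180 from edgeR). *Cdkn2b*, a further INK4 gene, had only 4, 6 and 4 counts in PP2Ac KO and 21, 12 and 13 in PP2Ac WT. Its log2 fold change was -1.48 (adjusted p = 0.0176 from edgeR), which did not pass in DESeq2 (0.0549) or without PP2Ac KO replicate 1, PP2Ac KO replicate 3 or PP2Ac WT replicate 1 (0.0695, 0.0630 and 0.0559). Without PP2Ac KO replicate 1 or PP2Ac WT replicate 2, 5 partners were lower.

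Around *Myc*, genes of the network of MYC, MAX and their relatives passed the test in both directions, whereas *Myc* itself did not pass. *Max*, whose product pairs with MYC and with the MXD repressors, had 182, 178 and 177 CPM in PP2Ac KO and 115, 95.8 and 94.0 CPM in PP2Ac WT, a log2 fold change of 0.82 (adjusted p = 0.000160 from edgeR). Of the 11 tested genes of the MYC network, 4 were higher (*Max*, *Mxd1*, *Mlxip* and *Mycl*) and 3 lower (*Mxd3*, *Mxd4* and *Mnt*), with a median log2 fold change of 0.02. *Mxd1* and *Mxd3*, both repressors that compete with MYC for MAX, had log2 fold changes of 1.06 and -2.02, *Mxd3* from 7 to 53 counts per library. *Mycl*, a relative of *Myc*, had 38 to 79 counts in PP2Ac KO and 23 to 29 in PP2Ac WT, and a log2 fold change of 1.37.

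Of 13 tested genes that control the turnover of MYC protein, 2 were higher (*Fbxw7* and *Ppp2r5a*) and 3 lower (*Usp28*, *Aurka* and *Cip2a*), with a median log2 fold change of -0.06. With the block, 6 were lower, and with upper-quartile scaling 5. *Ppp2r5a*, the gene of a regulatory subunit that directs PP2A, had a log2 fold change of 0.66. *Cip2a*, the gene of an inhibitor of PP2A, and *Aurka*, a mitotic kinase gene, had log2 fold changes of -0.73 and -0.91. Of 30 tested targets of MYC, 4 were higher (*Wdr43*, *Odc1*, *Pes1* and *Tcof1*) and 8 were lower, with a median of -0.14. Lower targets numbered 14 with the block, 13 with upper-quartile scaling and 5 without PP2Ac WT replicate 2. *Wdr43*, a gene of ribosome assembly, had a log2 fold change of 0.86, whereas *Nop16* and *Dkc1*, also of the nucleolus, had -0.80 and -0.72.

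Among 22 tested targets of p53, other than *Cdkn1a*, 6 were higher and 3 lower (*Sesn1*, *Zmat3* and *Xpc*), with a median log2 fold change of 0.16. Higher targets numbered 11 with the block, and 3 with upper-quartile scaling or without PP2Ac KO replicate 2. *Mdm2*, which encodes the main antagonist of p53, and *Btg2*, an antiproliferative gene, had log2 fold changes of 0.81 and 0.70. *Sesn1*, a stress-response gene, had a log2 fold change of -1.12.

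Genes of S phase were mostly lower. Of 20 tested E2F and S-phase targets, 11 were lower and 1 (*Mcm10*) was higher, with a median log2 fold change of -0.40. *Rrm2*, a subunit of ribonucleotide reductase, fell from 14.0 ± 0.803 to 3.39 ± 0.859 CPM (SD, n = 3), which is a log2 fold change of -2.05 (adjusted p = 6.03e-05 from edgeR). *Ccna2*, the gene of the S-phase cyclin A2, fell from 13.8 ± 0.891 to 4.78 ± 0.583 CPM (SD, n = 3), which is a log2 fold change of -1.53 (adjusted p = 5.4e-05 from edgeR). *Mcm7*, part of the replicative helicase, had a log2 fold change of -0.90. The higher count of 1 was 0 without any 1 of the PP2Ac KO replicates or without PP2Ac WT replicate 2 or 3, 2 with RLE scaling, no filter, DESeq2 or limma-voom, and 3 with the block or without PP2Ac WT replicate 1.

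Of 24 tested genes of mitogen and FOXO signaling, 11 were higher and 3 were lower (*Foxo3*, *Foxo4* and *Cebpa*), with a median log2 fold change of 0.19. The list mixes genes with different roles, so these counts do not give a net input to the D cyclins. *Junb*, an AP-1 gene, had 539.1 ± 41.8 CPM in PP2Ac KO against 213.7 ± 15.3 CPM in PP2Ac WT (SD, n = 3), so its log2 fold change was 1.34 (adjusted p = 3.9e-05 from edgeR). *Csf1*, the gene of M-CSF itself, rose from 69.6 ± 18.0 to 140.4 ± 14.7 CPM (SD, n = 3), which is a log2 fold change of 1.01 (adjusted p = 0.00127 from edgeR). *Cebpa*, a myeloid transcription factor gene, had a log2 fold change of -0.83. The lower count was 1 with RLE scaling, in DESeq2, and without PP2Ac KO replicate 2, PP2Ac KO replicate 3 or PP2Ac WT replicate 2.

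**Figure D4:**
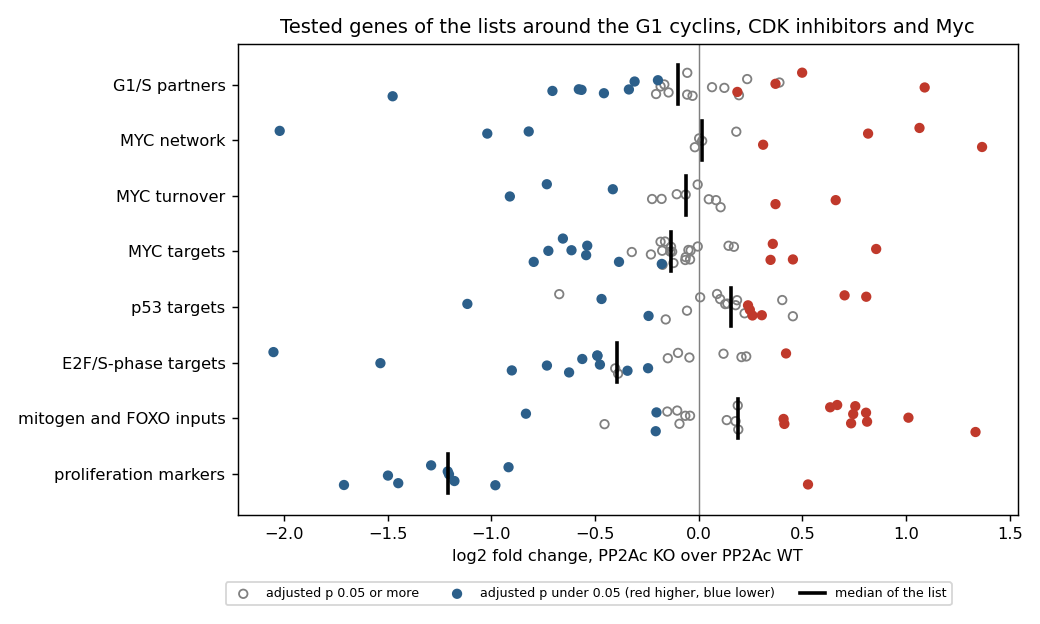
Log2 fold change of PP2Ac KO over PP2Ac WT (horizontal axis) of each tested gene on the 7 pathway lists and the list of proliferation markers, with filled points at adjusted p under 0.05 (red higher, blue lower), open points for the rest and a bar for the median of each list. The medians run from -1.21 for the proliferation markers and -0.40 for the E2F and S-phase targets to 0.19 for the mitogen and FOXO inputs.

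The genes whose log2 CPM was most like that of each of the 10 were found over the 6 libraries by Pearson's r, outside the 10 themselves. These r describe likeness only, since the libraries share 2 genotypes and 13680 genes were searched. For genes that differ between genotypes, r includes that difference. *Zeb1* was closest to *Ccnd1* (r = 0.9997), *Slc25a22* to *Ccnd2* (r = 0.9996) and *Trem1* to *Ccnd3* (r = 0.998). *Pgghg* was closest to *Cdkn1a* (r = 0.9998), *Sesn1* to *Cdkn2c* (r = 0.9999) and *Gnl1* to *Cdkn2d* (r = 0.996). For the genes that did not pass, *Foxn3* was closest to *Ccne1* (r = 0.991), *Rhebl1* to *Ccne2* (r = 0.995), *Thnsl1* to *Cdkn1b* (r = 0.990) and *Pgm5* to *Myc* (r = 0.980).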

How the data were processed

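The authors deposited 1 table with raw read counts per gene of mm10 (GRCm38) in 6 libraries of poly(A) RNA, made with a directional kit and read from both ends in 150 bases. The submitters' processing notes name fastp 0.20.0, STAR 2.7.1a, HTSeq 0.11.2, kallisto 0.46.1, edgeR 3.34.0 and limma 3.48.3. The strand setting of the counting is not given in the sources used here. Reads of overlapping genes may therefore have been counted on either gene or on neither. How reads of near-identical copies were counted is not given either.

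Tests were run on these counts in edgeR 4.0.16 under R 4.3.3 (filterByExpr at count 10 and total 15, TMM, glmQLFit and glmQLFTest for genotype alone). P-values were adjusted by the Benjamini-Hochberg method over 13680 genes, and calls were made at FDR under 0.05. Confidence intervals are 95%. CPM used the TMM factors (0.910 to 1.10). CPM per kb used the exons of GENCODE M21, which held 98.3% of the symbols. Shares were compared with the exact two-sided permutation test. Floors of 3 counts cover counting error only. The gene test was first run on simulated counts. Results for 1 of the motifs searched are not reported here.

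Both genotypes carry replicate numbers 1, 2 and 3, taken from the labels. Libraries with the same number deviated together from their group means (correlations across genes of 0.289, 0.148 and 0.337), so a fit blocked by replicate number was run as well. The main fit of genotype alone and the permutation tests did not use the pairs. Blocked values are given where they change a call or move a count by over 1.5 times. The alternatives tried were upper-quartile and RLE scaling, no filter, at least 10 counts in every library, each library left out, DESeq2 1.42.0, limma-voom (limma 3.58.1) and the longest transcript. The 10 genes and all lists, written by hand from general knowledge, were chosen with earlier results of these data known. Named genes are the 10, *Cdk2*, *Cdk4*, *Cdk6*, *Rb1*, *Max*, *Ppp2ca*, the 3 called genes of largest change on each pathway list, and the gene most correlated with each of the 10 (log2 CPM, prior count 2). Other genes on the lists and cell markers were named after their values were seen.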

Additional observations from a re-analysis of the deposited data

How the results depend on the processing

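For 36 named genes under 13 alternatives, 441 of 466 log2 fold changes kept their direction and their side of FDR 0.05, 8 lost the call, 11 gained it and 6 changed sign. The sign changes were in *Myc* and *Ccne1*, which were never called: *Myc* was 0.0079 with RLE scaling and 0.0078 in DESeq2, and *Ccne1* was -0.055 with upper-quartile scaling. In the blocked fit, by replicate number (the replicate block), 3 of the 10 genes were lower, *Ccne2* at -0.46 and *Cdkn1b* at -0.18 then passed, and higher G1/S partners, lower MYC turnover genes, lower MYC targets, higher p53 targets and higher E2F targets numbered 7, 6, 14, 11 and 3. Besides these, *Cdk6* and *Rb1* passed, and the block changed no other call among these 36 genes. Upper-quartile scaling gave 2 lower among the 10, *Ccnd3* at 0.18 (not passing) and *Cdkn1b* at -0.25 and *Rb1* at -0.23 (both passing), 5 lower MYC turnover genes, 13 lower MYC targets and 3 higher p53 targets. Higher E2F targets numbered 2 with RLE scaling, no filter, DESeq2 and limma-voom, and lower mitogen and FOXO inputs numbered 1 with RLE scaling and DESeq2. With the longest transcript, the genotypes differed by 11.5 percentage points in the share of *Ccnd2* (10.3 with all exons) and by 6.24 in the share of *Cdkn1a* among the inhibitors of the 10 genes (9.12), because the lengths changed.

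Leaving out 1 library at a time gave 4 to 5 higher and 1 to 2 lower among the 10 genes, 2 to 3 past the study's thresholds, log2 fold changes of 0.18 to 0.28 for *Ccnd3* -0.25 to -0.13 for *Cdkn1b*, -0.050 to 0.036 for *Myc* and -0.12 to 0.14 for *Ccne1*, 5 to 8 lower G1/S partners, 5 to 10 lower MYC targets, 3 to 6 higher p53 targets, 0 to 3 higher E2F targets and 1 to 3 lower mitogen and FOXO inputs. *Cdkn2b* and *Mxd3* gave no value with at least 10 counts in every library. With 3 libraries a group, an exact permutation test cannot give p under 0.1. *Ccne2* has the fewest counts of the 10 genes and the widest interval (-0.98 to 0.06). The causes of the changes in call were not tested.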
